A study of Homo sapiens with 84 samples.

Results

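Promoter peaks are the stretches of open chromatin that lie at or near the start of a gene. They were taken as the peaks whose deposited annotation begins with Promoter, which covers peaks up to 3 kb from a transcription start site (TSS) on either side. There were 48172 of them among 861439 peaks, 25865 within 1 kb, 11823 between 1 and 2 kb and 10484 between 2 and 3 kb of the TSS. They were assigned to 22145 gene symbols, of which 9560 had 1 promoter peak and 12585 had more, up to 12, and 5 peaks had no symbol. Of these peaks, 16810 (34.9%) lay over the TSS itself, 11810 lay upstream and 19552 downstream. Peaks over the TSS were wide, with a median of 1441.5 bp, against 479 bp for all promoter peaks and 290 bp for peaks of the other annotation classes.

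ATAC-seq, where a hyperactive Tn5 transposase cuts open DNA and tags it with sequencing adapters, was run on 9 established lines of triple-negative breast cancer, tumours without hormone receptors or amplified HER2. The lines MDA-MB-231, MDA-MB-468, SUM-149PT and SUM-159PT each had 4 groups: DMSO (the solvent control), tazemetostat at 5 uM, ipatasertib at 5 uM, and both agents at those doses. Only DMSO and the combination were given to HCC1937, HCC1395, HCC1143, BT-549 and BT-20. All groups held 3 libraries, 78 in all, and whether they are separate cultures is not in the labels. The labels give the schedule for MDA-MB-468. Tazemetostat or DMSO was given from day -5, cells were passaged on day -3 and seeded on day -1 at 250000 cells per plate, and on day 0 all groups went into medium with 2% FBS, with ipatasertib, tazemetostat, both or neither, for 24 hours. The single agents therefore differ in both target and length of exposure. Nuclei of 50000 cells entered each transposition by the Omni-ATAC protocol. The question is how chromatin at gene starts responds to each agent and to both.

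A promoter is the DNA around a TSS where general transcription factors and RNA polymerase II assemble. Many mammalian promoters lie in CpG islands, stretches rich in the dinucleotide CG, and stay free of nucleosomes in most cell types, while promoters poor in CpG tend to open in particular cell types. Tazemetostat inhibits EZH2, the catalytic subunit of PRC2, a Polycomb complex that adds methyl groups to lysine 27 of histone H3 and keeps the CpG island promoters of many developmental regulators silent. Ipatasertib inhibits the AKT kinases, which act downstream of PI3K and restrain the FOXO transcription factors.

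The sequences of 6 promoters introduce the members, 3 that rose with the combination over the 9 lines and 3 that fell. They are the first 3 in each direction, by size of the change, whose peak held the start of its own gene in the RefSeq promoter table and which lay in a printable region. Each is the 250 bases before the TSS on GRCh38.p14, read 5′ to 3′ on the strand of the gene, with CpG dinucleotides in capitals. CALCR lies on the minus strand at chr7:93574725-93574974, FXYD6-FXYD2 on the minus strand at chr11:117876659-117876908 and F13A1 on the minus strand at chr6:6320663-6320912. MSH4 lies on the plus strand at chr1:75796632-75796881, ZNF132 on the minus strand at chr19:58440154-58440403 and RNF225 on the plus strand at chr19:58395406-58395655.
CALCR: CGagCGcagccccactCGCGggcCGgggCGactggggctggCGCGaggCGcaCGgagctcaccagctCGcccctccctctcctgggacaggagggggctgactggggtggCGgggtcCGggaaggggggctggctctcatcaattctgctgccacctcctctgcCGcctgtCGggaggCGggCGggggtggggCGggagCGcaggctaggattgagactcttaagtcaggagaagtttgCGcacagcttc
FXYD6-FXYD2: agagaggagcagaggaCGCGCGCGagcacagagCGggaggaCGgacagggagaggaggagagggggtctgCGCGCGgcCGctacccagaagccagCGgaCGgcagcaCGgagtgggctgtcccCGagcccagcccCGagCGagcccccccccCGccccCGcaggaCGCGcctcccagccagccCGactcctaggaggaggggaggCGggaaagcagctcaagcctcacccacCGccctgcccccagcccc
F13A1: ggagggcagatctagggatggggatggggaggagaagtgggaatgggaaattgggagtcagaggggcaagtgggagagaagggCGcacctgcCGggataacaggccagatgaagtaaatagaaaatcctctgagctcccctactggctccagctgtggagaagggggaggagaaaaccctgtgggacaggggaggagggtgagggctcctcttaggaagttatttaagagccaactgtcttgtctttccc
MSH4: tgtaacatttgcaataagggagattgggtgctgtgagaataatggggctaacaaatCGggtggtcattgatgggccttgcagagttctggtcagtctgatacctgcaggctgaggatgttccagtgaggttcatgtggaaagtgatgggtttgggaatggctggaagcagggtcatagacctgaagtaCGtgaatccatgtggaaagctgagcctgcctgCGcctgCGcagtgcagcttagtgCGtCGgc
ZNF132: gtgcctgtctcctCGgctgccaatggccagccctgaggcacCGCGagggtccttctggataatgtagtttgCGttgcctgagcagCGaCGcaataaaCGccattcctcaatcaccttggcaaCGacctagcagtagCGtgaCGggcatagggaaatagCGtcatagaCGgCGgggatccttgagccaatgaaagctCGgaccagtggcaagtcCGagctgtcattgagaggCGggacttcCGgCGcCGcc
RNF225: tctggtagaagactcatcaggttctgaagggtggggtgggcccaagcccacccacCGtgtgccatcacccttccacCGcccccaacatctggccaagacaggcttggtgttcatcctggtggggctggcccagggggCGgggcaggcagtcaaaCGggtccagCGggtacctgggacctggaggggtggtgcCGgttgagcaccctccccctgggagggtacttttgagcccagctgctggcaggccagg
The printed stretches of CALCR and FXYD6-FXYD2 held 20 and 23 CpGs, and those promoters were CpG-rich by the rule used below. ZNF132, a zinc finger gene, was CpG-rich as well, with 19 CpGs, and its 300 bases held an ETS site (CCGGAAG on either strand). The printed bases of F13A1 held 2 CpGs, those of MSH4 held 6 and those of RNF225 held 6, and these promoters were CpG-poor. The promoter peak of ZNF132 changed by -0.52 ± 0.13 and that of RNF225, a RING finger gene, by -0.48 ± 0.080 in log2 units (SE, n = 9 lines, edgeR adjusted p = 0.0281 and 0.00691). The values of the other 4 are given below.

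Libraries held 12292571 to 21459284 counts in peaks. Over promoter peaks with 20 to 2000 counts in a pair of replicate libraries, 72 of 78 pairs differed by less than sampling noise, with a median ratio of observed to sampling variance of 0.777. The 3 libraries of a group were therefore summed and counted as 1 sample, so replication is over lines and n counts lines. The 2 highest ratios, 1.62 and 1.73, were those of HCC1395 DMSO replicate 3 against its partners. Without that library, 69 of the 70 values of single named genes for the combination kept their direction and their side of the threshold. Among marker genes of immune, endothelial, melanocyte and neural cells, CD3E had no DMSO line at 1 CPM (CPM being the count of a peak scaled by TMM library size, as edgeR gives it) or above, TEK and RBFOX3 had 1 and PECAM1 had 2. TIE1 had 3. SPI1 and PMEL, a blood and a melanocyte gene, reached at least 29.7 and 32.8 CPM in every line. CSF1R, CD14, CDH5 and GFAP were also above 1 CPM in every line, with lowest values of 11.1, 1.90, 1.28 and 1.36 CPM. Of the markers of breast cells, CDH1 ranged from 1.58 CPM in SUM-159PT to 40.2 in BT-20 and VIM from 30.3 in BT-20 to 69.3 in BT-549. EPCAM, by a peak 1 to 2 kb from the TSS, reached 1 CPM in 3 lines, with 2.86 in MDA-MB-468 the highest.

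In DMSO, most promoter peaks were open either in every line or in none at a level of 1 CPM. Of the 48172, 14217 (29.5%) reached it in all 9 lines, 15889 (33.0%) in none and 18066 in 1 to 8 lines. The number open per line varied little, from 21437 in SUM-159PT to 23367 in MDA-MB-468. Peaks over the TSS were open in all lines in 62.5% of cases, peaks 1 to 2 kb downstream in 13.7% and peaks 1 to 2 kb upstream in 8.53%. The RefSeq table matched 72.2% of the gene IDs, and 11004 peaks held a whole window of 300 bases, from 250 before to 50 after a TSS. A window counted as CpG-rich where its GC content was at least 50% and its ratio of observed to expected CpG at least 0.6. Of 8255 peaks with CpG-rich windows 86.6% were open in every line, against 47.0% of 2749 with CpG-poor windows. The CpG-rich peaks also varied less between lines: the median SD over lines of log2(CPM + 0.5) was 0.36, against 0.74 for CpG-poor peaks.

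Some promoter peaks differed widely in level between lines in DMSO. CDKN2B, which encodes an inhibitor of the G1 cyclin-dependent kinases, stood at 30.5 CPM in BT-549, 26.5 in MDA-MB-468 and 21.8 in HCC1937. It had 0 counts in HCC1395, MDA-MB-231 and SUM-149PT, 1 in BT-20, 2 in HCC1143 and 26 in SUM-159PT, where 3 counts, the limit that a count of 0 allows, equal 0.0479 to 0.0754 CPM depending on the line. Genes near it on chromosome 9 shared part of this. MTAP, a methionine salvage enzyme, had 0 counts in MDA-MB-231, 1 in SUM-149PT and 9 in SUM-159PT, and DMRTA1 had 0, 0 and 2 in the same lines. In the other 6 lines MTAP ranged from 1.22 CPM in HCC1395 to 35.3 in BT-549, and DMRTA1 from 10.8 in HCC1143 to 30.3 in BT-549. TBX18, a T-box factor of mesenchymal development, split the lines differently, with 21.6 to 53.0 CPM in BT-549, HCC1143, HCC1395, SUM-149PT and SUM-159PT, 2.13 in MDA-MB-468 and 0.505 to 0.687 in the remaining 3. SLC44A2, a choline transporter, was most open in MDA-MB-468 at 84.7 CPM, with 17.2 in BT-20 as the next, and IRX1, an Iroquois homeobox factor, was most open in HCC1395 at 71.5 CPM, with 14.4 in HCC1143 as the next.

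The share of all counts that fell in promoter peaks is free of the choice of scaling between libraries, and it was lower with tazemetostat in 4 of 4 lines. In MDA-MB-468 it went from 29.9% to 25.6%, in SUM-159PT from 26.0% to 22.7%, in MDA-MB-231 from 30.1% to 27.7% and in SUM-149PT from 27.5% to 26.0% (means of 3 libraries). In none of the 4 did the libraries of both groups overlap. With the combination the share was lower in 7 of 9 lines, with a median difference of -0.82 percentage points (SD 1.38 over lines). It was lower without overlap in BT-549, MDA-MB-231, MDA-MB-468 and SUM-159PT and stood higher, with overlap, in BT-20 by 0.29 and in HCC1395 by 0.93 points. In the 4 lines with single agents the combination stood above tazemetostat by 0.57 to 1.14 points, again without overlap. Ipatasertib against DMSO gave differences of -0.31 to 0.66 points (median 0.29), higher in 3 of 4 lines. The libraries did not overlap in MDA-MB-231, where the share was lower, and in MDA-MB-468, where it was higher, and overlapped in the other 2. The share is a property of the whole class and carries no p-value here, since the class was chosen with earlier results of these data known.

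**Figure D1:**
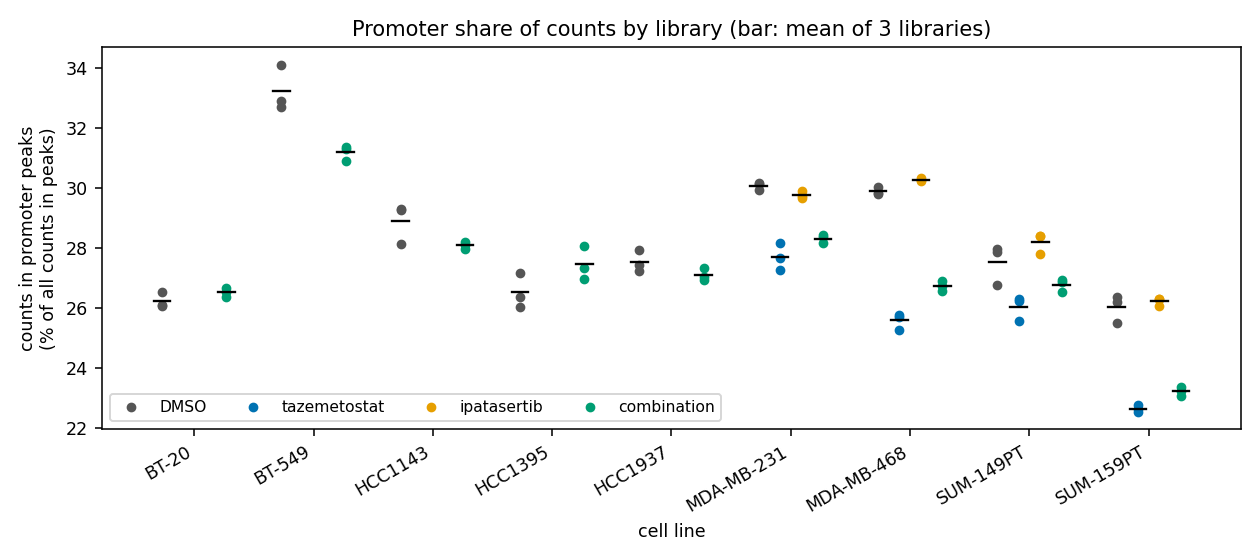
Counts in promoter peaks as a percentage of all counts in peaks (y axis), for each library (points) by cell line (x axis) and treatment (colours), with bars at the mean of 3 libraries. The tazemetostat libraries lie below the DMSO libraries in all 4 lines that have both, with the widest gap in MDA-MB-468, from 29.9% to 25.6%.

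With the combination over 9 lines, promoter peaks changed in both directions. Of 37091 tested, 1640 (4.42%) rose, where 3.52% of all 410603 peaks tested did, and 1907 (5.14%) fell, where 2.74% of all peaks did (edgeR quasi-likelihood test on summed counts, line as block, adjusted p under 0.05 over all peaks). The remaining 11081 promoter peaks did not pass the filter on low counts. The share that rose is near the background. Promoter peaks made up 9.03% of the peaks tested, 11.4% of those that rose and 17.0% of those that fell, and no test of that difference was made. Their median log2 fold was -0.07 (SD 0.15 over the medians of the 9 lines), beside -0.01 for all peaks. The part of the calls that were falls, 53.8%, was 61.1% with scaling by total counts and 41.7% with TMM factors from promoter peaks alone, so which direction prevails depends on the scaling. The last of these centres promoter peaks near 0 by construction (median log2 fold 0.0042). It therefore cannot show whether the class shifted as a whole.

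Among promoters named by the rule for the combination, which asks for a mean log2 CPM of at least 2, the largest rise was at CALCR. OTX2 and HSD17B12, named below by other rules, rose by 1.49 ± 0.30 and 1.41 ± 0.14 with the combination (edgeR adjusted p = 0.0139 and 0.00138). The peak of CALCR, the calcitonin receptor, lies over the TSS at chr7:93574258-93576758 (hg38, as deposited) and ranged from 1.31 in HCC1937 over a median of 4.62 to 22.8 CPM in MDA-MB-231 with DMSO, and from 4.44 over 11.9 to 25.6 CPM with the combination. The ranges overlapped, but within each of the 9 lines the combination was the higher one, least in MDA-MB-231, where it was already open (log2 fold 0.17), and most in MDA-MB-468 (2.62). The rise of CALCR came to 1.30 ± 0.23 in log2 units (SE, n = 9 lines, edgeR adjusted p = 0.0104). FXYD6-FXYD2, a readthrough gene of regulators of the sodium pump, ranged from 0.988 over 1.76 to 10.3 CPM with DMSO and from 2.14 over 5.45 to 10.9 with the combination. It rose by 1.18 ± 0.23 (adjusted p = 0.0130), with SUM-159PT far above the other lines at 3.28 and MDA-MB-468 at 0.08. F13A1, which encodes a subunit of coagulation factor XIII, ranged from 0.544 over 1.42 to 11.1 CPM with DMSO and from 0.976 over 5.71 to 14.4 with the combination, a rise of 0.99 ± 0.20 (adjusted p = 0.0136).

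The other named rises were at genes of varied function. GRIK1, a kainate receptor subunit, rose by 1.09 ± 0.23 (8 of 9 lines), and its level with DMSO spanned 0.447 CPM in SUM-159PT to 17.3 in BT-549. FGF14, an intracellular partner of sodium channels, rose by 1.06 ± 0.18 in 9 of 9 lines, and CNTN1, an adhesion molecule of axons, by 0.97 ± 0.19 in 9 of 9. KHDRBS3, an RNA-binding regulator of splicing, rose by 1.06 ± 0.21 in 9 of 9 lines, and ZMAT4, a zinc finger gene, by 1.204 ± 0.21 in 8 of 9. ADA2, a secreted adenosine deaminase, rose by 1.03 ± 0.22 in 8 of 9 lines, HSPB3, a small heat shock protein of muscle, by 0.97 ± 0.19 in 9 of 9, and FOXB2, a forkhead factor, by 0.95 ± 0.23 in 8 of 9. In the line where it was highest with DMSO, GRIK1 went from 17.3 to 17.7 CPM (BT-549) and CNTN1 from 27.8 to 33.5 CPM (SUM-149PT). FOXB2 and FGF14 were highest in BT-549, where they went from 16.3 to 18.8 and from 9.39 to 13.6 CPM. In lines where they started lower, FOXB2 went from 4.93 to 13.1 (HCC1395) and FGF14 from 8.87 to 19.0 CPM (HCC1143). For FOXB2 the call was lost without the filter on low counts (adjusted p = 0.0762) and without HCC1395 (0.0585) or SUM-149PT (0.0540).

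The largest falls were smaller than the largest rises, between -0.54 and -0.73. PSMG3, a chaperone of proteasome assembly, ranged from 1.93 over 9.54 to 28.4 CPM with DMSO and from 1.42 over 3.03 to 21.7 with the combination, and fell by 0.71 ± 0.15 (adjusted p = 0.0141). It was lower in 8 of 9 lines, BT-20 being the exception at 0.09. The peak (chr7:1567087-1568309) is 2696 bp downstream of the TSS. MSH4, a MutS homologue of meiotic recombination, ranged from 1.60 over 5.61 to 10.1 CPM with DMSO and from 0.716 over 4.52 to 7.30 with the combination, and fell by 0.67 ± 0.13 (adjusted p = 0.0122) with the lower value in 9 of 9 lines. ZNF217, a zinc finger factor amplified in some breast cancers, fell by 0.61 ± 0.09 (adjusted p = 0.00516), from 1.58 over 7.73 to 17.1 CPM down to 0.927 over 5.45 to 12.9. EID3, a subunit of the SMC5-SMC6 complex, fell by 0.73 ± 0.18, MYO1G, a myosin of blood cells, by 0.73 ± 0.17, and KIAA0319L, a membrane protein used as a receptor by adeno-associated virus, by 0.69 ± 0.16. CNOT9, a subunit of the CCR4-NOT deadenylase, fell by 0.61 ± 0.11, RAB26, a GTPase of vesicle traffic, by 0.54 ± 0.10, and MFAP4, a microfibril protein, by 0.56 ± 0.16 (adjusted p = 0.0451). EID3 lost its call without HCC1395 (adjusted p = 0.0507) or MDA-MB-231 (0.0538), and MFAP4 lost it in 12 alternative settings.

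Of the 12 named falls 3 were at histone genes. H4C12 and H4C11, which encode histone H4, fell by 0.60 ± 0.09 and 0.55 ± 0.09 (adjusted p = 0.00419 and 0.00715), and H2BC20P, a transcribed pseudogene of a histone H2B gene, fell by 0.67 ± 0.11 (adjusted p = 0.00649). All 3 were lower in 9 of 9 lines. H4C12 ranged from 7.48 over 9.91 to 24.0 CPM with DMSO and from 3.803 over 8.26 to 11.1 with the combination, so the groups overlapped. Histone genes have near-identical copies, and how reads shared between copies were counted is not given in the sources used here, so these values are uncertain.

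**Figure D2:**
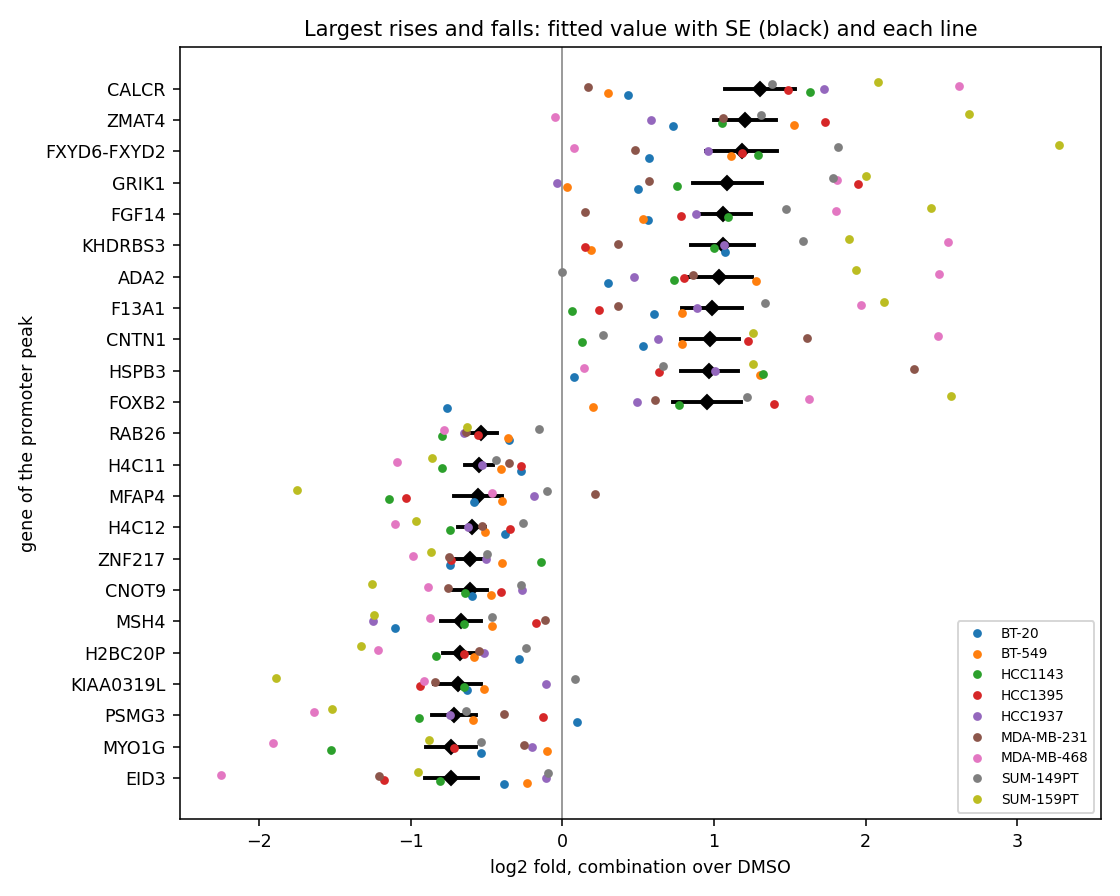
Log2 fold of the combination over DMSO (x axis) for the largest rises and the 12 largest falls named by the rule for the combination (y axis). The fitted value and its SE are in black and each of the 9 lines is a coloured point. CALCR is at 1.30 and EID3 at -0.73, and the lines spread more widely at the rises than at most falls.

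The frequency of falls differed by position within the promoter. With the combination, 8.02% of the 5461 peaks tested 1 to 2 kb downstream of the TSS fell and 4.69% rose, and over the TSS 5.30% fell and 4.01% rose. Among the 2927 peaks 1 to 2 kb upstream 2.19% fell and 5.33% rose, and 2 to 3 kb upstream 1.46% fell and 4.08% rose. The same contrast appeared within genes that had both kinds of peak. In 2026 of 3308 genes (61.2%) the peak 1 to 2 kb downstream had a lower log2 fold than the peak over the TSS, while 1 to 2 kb upstream this held in 881 of 1836 (48.0%). With tazemetostat, fitted over 4 lines, falls were most frequent over the TSS, where 36.4% of 16310 peaks fell and 1.37% rose. Within 1 kb downstream 7.27% fell, and within 1 kb upstream 1.35%. The combination was not fitted against DMSO in those 4 lines alone, so these percentages do not compare it with tazemetostat. Level moved with position, since the median log2 CPM was 3.70 over the TSS and -0.39 within 1 kb downstream, and its part in the calls was not tested here. Within genes the peak 1 to 2 kb downstream was lower in log2 fold than the peak over the TSS in 1911 of 3750 (51.0%) with tazemetostat, with a median difference of -0.0076, and the peak 1 to 2 kb upstream in 779 of 2134 (36.5%).

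**Figure D3:**
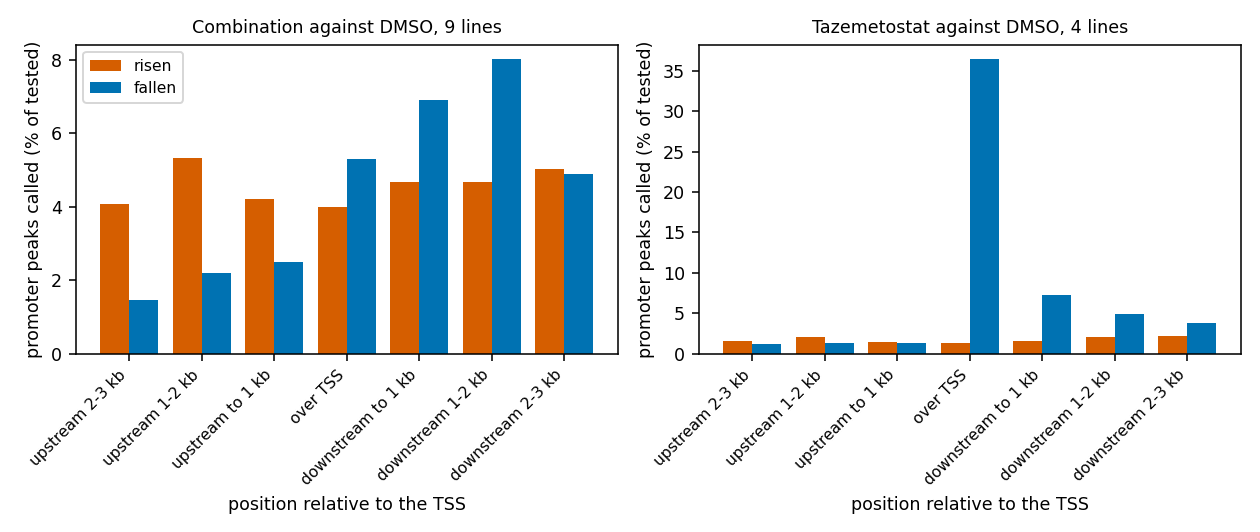
Promoter peaks past an adjusted p of 0.05 as a percentage of those tested (y axis), risen in orange and fallen in blue, by position relative to the TSS (x axis), for the combination over 9 lines and for tazemetostat over 4, on y axes of different range. With tazemetostat 36.4% of peaks over the TSS fell, and with the combination the largest percentage of falls, 8.02%, was 1 to 2 kb downstream.

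The sequence windows of risen and fallen promoters are described here without a test. Among promoter peaks tested with the combination that held a RefSeq window, 75.3% were CpG-rich, beside 60.4% of 399 that rose and 81.3% of 632 that fell. These shares did not hold at matched level. Under a mean log2 CPM of 3, 14.5% of 941 CpG-rich peaks rose and 1.06% fell, against 8.39% and 1.69% of 1597 CpG-poor peaks. At 3 or above, 1.44% of 7284 CpG-rich peaks rose and 6.92% fell, against 2.17% and 8.24% of 1104 CpG-poor peaks. An ETS site, CCGGAAG searched on both strands, was in 15.9% of the windows tested, in 2.51% of those that rose and in 33.5% of those that fell, beside 10.3% of all 35116 RefSeq windows of that length. Within CpG-rich windows alone it was in 19.1% of all, 2.07% of 241 risen and 38.1% of 514 fallen. ETS proteins are a large family of transcription factors whose motif is common in CpG island promoters. The ZNF132 window printed above carries this site, and those of CALCR, FXYD6-FXYD2, F13A1, MSH4 and RNF225 do not.

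The other motifs searched are given in the same order. The GC box (GGGCGG), the motif of Sp factors, was in 67.4% of windows tested, 57.6% of those risen and 59.8% of those fallen, beside 44.95% of all RefSeq windows. Within CpG-rich windows alone the GC box was in 80.1% of all, 80.5% of risen and 66.0% of fallen. The NRF1-like site GCGCATGC was in 4.63%, 1.75% and 7.44%, beside 3.05%. The TATA box (TATAAA) was in 5.95%, 10.03% and 6.01%, beside 11.5%, and the forkhead site GTAAACA, the core of FOXO binding, in 2.65%, 2.76% and 2.22%, beside 3.42%. The CCAAT box was in 34.7%, 26.8% and 34.97%, beside 34.6%, and the E-box CACGTG in 9.11%, 6.77% and 11.2%, beside 7.26%. Windows that also start a gene on the other strand were 23.4% of those tested, 12.8% of those risen and 32.4% of those fallen. The E2F-like site TTTNNCGC was in 9.67%, 10.8% and 13.1%, beside 6.89%, the AP-1 site TGANTCA in 6.51%, 8.27% and 6.17%, beside 7.71%, and the cyclic AMP response element TGACGTCA in 2.86%, 2.01% and 3.64%, beside 1.85%. All motifs were searched on both strands, and none of them holds another whole. A match is a string of letters and not a bound site.

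With tazemetostat alone over 4 lines, promoter peaks fell far more often than they rose. Of 41816 tested, 6905 (16.5%) fell, where 2.23% of all 565986 peaks did, and 696 (1.66%) rose, where 2.14% of all peaks did. Promoters were 7.39% of the peaks tested and 54.7% of those that fell, and 6309 of the 6905 lay within 1 kb of the TSS. The median log2 fold of promoter peaks was -0.24 (SD 0.18 over the medians of the 4 lines), beside -0.03 for all peaks. The line medians were -0.50 in MDA-MB-468, -0.34 in SUM-159PT, -0.16 in MDA-MB-231 and -0.11 in SUM-149PT. This result depends on the scaling: falls were 90.8% of promoter calls with TMM, 84.0% with total counts, 47.1% (1529 risen, 1360 fallen) with TMM factors from promoter peaks and 44.9% (416 risen, 339 fallen) with offsets that follow abundance. By construction, TMM factors from promoter peaks centre the class near 0 (median log2 fold 0.039), and offsets that follow abundance remove changes that follow level. Neither can show whether the class shifted as a whole. The number of calls also rests on single lines. By edgeR 0 fell without SUM-159PT, where 11885 promoter peaks had an unadjusted p under 0.05, and 41, 904 and 2975 without MDA-MB-231, MDA-MB-468 and SUM-149PT. The median log2 fold of promoter peaks stayed below 0, at -0.22, -0.26, -0.18 and -0.28 with these lines left out in the same order.

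The falls followed the level of the peak. At a mean log2 CPM of 4 to 5, 64.3% of 6028 promoter peaks fell, against 30.01% of 4232 other peaks, and at 5 to 6 it was 78.0% against 57.0%. At 3 to 4 it was 33.9% against 8.74%, while under 0 it was 0.49% of 17529 promoter peaks and 0.26% of other peaks. Of the windows in fallen peaks 91.3% were CpG-rich and 23.8% held the ETS site, beside 75.01% and 15.8% of those tested, and of the 114 in risen peaks 40.4% and 1.75%. The difference between the medians of promoter peaks and all peaks was -0.21 with TMM, total counts and TMM on promoter peaks alike, and -0.02 with offsets that follow abundance. The global scalings move all peaks together, shifting the median of all peaks from -0.03 to 0.14 with total counts and 0.24 with TMM on promoters.

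**Figure D4:**
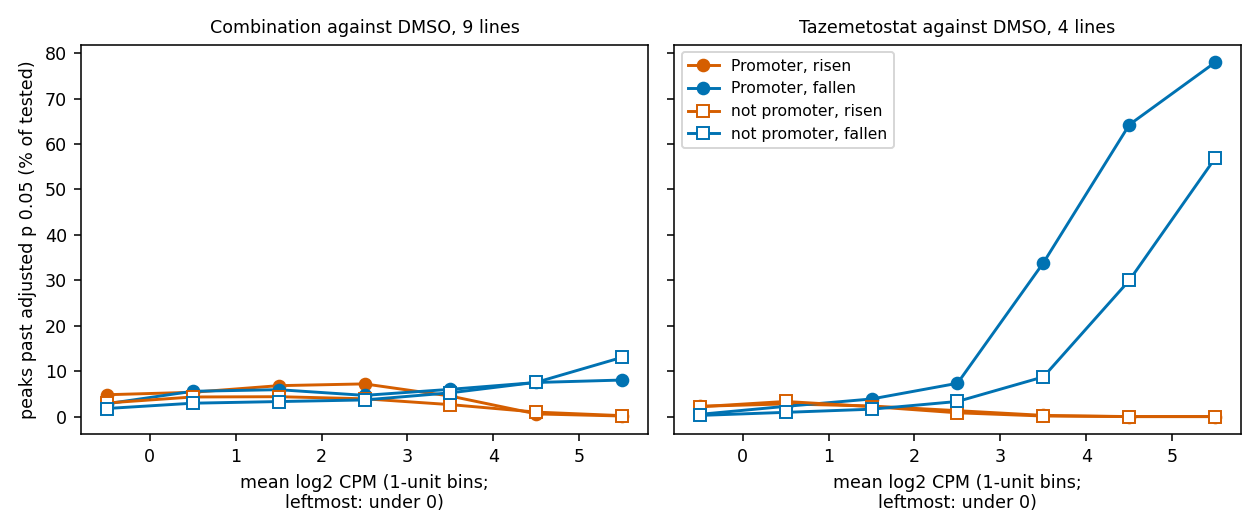
Peaks past an adjusted p of 0.05 as a percentage of those tested (y axis), against mean log2 CPM in bins of 1 unit (x axis), for promoter peaks and for other peaks, risen in orange and fallen in blue, with the combination over 9 lines and tazemetostat over 4. With tazemetostat the fallen percentage climbs with level to 78.0% of promoter peaks and 57.0% of other peaks at 5 to 6.

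Against this, single promoters rose with tazemetostat. HSD17B12, a reductase of very long chain fatty acid synthesis with its peak over the TSS (chr11:43556236-43558125), stood at 1.59 CPM in MDA-MB-231, 4.43 in MDA-MB-468, 2.44 in SUM-149PT and 1.55 in SUM-159PT with DMSO. With tazemetostat the same lines were at 6.26, 12.4, 6.55 and 4.45 CPM, above every DMSO value, and with ipatasertib at 1.85, 3.63, 2.57 and 1.35. HSD17B12 rose by 1.60 ± 0.15 (n = 4 lines, edgeR adjusted p = 0.000345), and this call and that of GRIA4 held in every alternative. GRIA4, an AMPA receptor subunit, went from 1.90, 2.13, 2.01 and 4.68 CPM in those lines to 4.86, 6.79, 4.28 and 6.38, a rise of 1.15 ± 0.19 (adjusted p = 0.0109) with SUM-159PT the least changed. The groups of GRIA4 overlapped only through the DMSO value of SUM-159PT. KHDRBS3 rose by 1.42 ± 0.34 and RYR3, a calcium release channel, by 1.18 ± 0.22 (adjusted p = 0.0351 and 0.0153).

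The largest falls with tazemetostat were CST6, which encodes a cysteine protease inhibitor (-0.96 ± 0.24), PSMG3 (-0.92 ± 0.23), the long non-coding RNA TRERNA1 (-0.90 ± 0.20), H2BC20P (-0.77 ± 0.17) and NFE2L1, a transcription factor of proteasome genes (-0.76 ± 0.19). CST6 went from 11.9 CPM in MDA-MB-231, 9.13 in MDA-MB-468, 22.7 in SUM-149PT and 5.06 in SUM-159PT to 7.87, 4.38, 18.03 and 1.13. All 4 lines were lower, and the groups overlapped because the lines differ in level. Each of these 5 lost its call in several alternatives, CST6 in 6 and NFE2L1 in 8.

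Ipatasertib alone left 0 promoter peaks called in either direction, as among all peaks (0% risen and 0% fallen), where 461 promoter peaks were at an unadjusted p under 0.05 by edgeR and 0 called by DESeq2. The combination against tazemetostat gave 0 as well (0% and 0% of all peaks, 889 at an unadjusted p under 0.05), and so did the test of a non-additive response (0% and 0%, 172 at an unadjusted p under 0.05), with 0 called by DESeq2 in both. The unadjusted counts of 461, 889 and 172 are each below 0.05 of the 41816 promoter peaks tested. Evenly spread p-values would give that share. The median log2 folds of promoter peaks were 0.06, 0.08 and 0.03. The first and second turned below 0 with total counts and with TMM factors from promoter peaks. With single libraries and the replicate number as a block, an analysis in which the spread is that between libraries, ipatasertib had 20 risen and 5 fallen and the combination against tazemetostat 415 and 25. These comparisons share their DMSO and tazemetostat samples with the others, so their values are set side by side only. CALCR had 1.39 ± 0.38 with tazemetostat, 0.05 ± 0.38 with ipatasertib and 0.16 ± 0.36 for the combination over tazemetostat. FXYD6-FXYD2 had 1.12 ± 0.56, 0.13 ± 0.56 and 0.25 ± 0.52, and HSD17B12 1.60 ± 0.15, -0.08 ± 0.15 and 0.09 ± 0.14. Among the falls, EID3 had -0.62 ± 0.27, -0.38 ± 0.27 and -0.53 ± 0.28, and H4C12 -0.67 ± 0.14, -0.04 ± 0.13 and -0.06 ± 0.14. A p that misses the threshold with 4 lines does not show that ipatasertib had no effect.

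Lists of genes by function were described with 1 promoter peak a gene, the most accessible one. Over all 20153 genes tested with the combination, 4.31% rose and 5.26% fell, with a median of -0.08, and over 21139 tested with tazemetostat, 1.53% rose and 29.8% fell, with a median of -0.31. Against these, developmental genes known as PRC2 targets had 11 risen and 0 fallen of 73 tested with the combination, with a median of 0.28, and kept 11 to 13 risen and 0 fallen under every scaling. With tazemetostat 4 rose and 8 fell (median 0.20), with 9 and 1 under TMM factors from promoter peaks, 8 and 6 under total counts and 2 and 0 under offsets that follow abundance. OTX2, a homeodomain regulator of the forebrain, led both with a peak 1678 bp downstream of the TSS (chr14:56814355-56815015). It stood at 0.201 over 0.276 to 0.629 CPM with DMSO, low in all 9 lines, and at 0.219 over 0.751 to 2.72 with the combination, a rise of 1.49 ± 0.30 (adjusted p = 0.0139) in 8 of 9 lines, highest in MDA-MB-468. With tazemetostat OTX2 went from 0.241, 0.365, 0.629 and 0.259 CPM in MDA-MB-231, MDA-MB-468, SUM-149PT and SUM-159PT to 1.202, 2.81, 0.749 and 2.04, a rise of 2.05 ± 0.40 (adjusted p = 0.0169) without overlap. SOX14 (0.92 ± 0.20), NEUROG1, a proneural factor (0.78 ± 0.16), and SOX2, a stem cell factor (0.76 ± 0.13), rose with the combination, and MEOX2 (1.23 ± 0.28), OLIG2 (1.07 ± 0.30) and SOX2 (0.91 ± 0.22) with tazemetostat. MEOX2 and OLIG2 did so in 3 of 4 lines, MDA-MB-231 having the lower value with tazemetostat. SOX2 stood at 11.1 CPM in MDA-MB-231 with DMSO and 11.3 with tazemetostat, but went from 1.76 to 5.79 in MDA-MB-468.

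Genes of cell division were on the other side. Of the DNA replication genes 0 rose and 10 fell of 41 tested with the combination (median -0.16), and of the mitosis genes 0 and 10 of 38 (median -0.17). With tazemetostat 0 rose and 27 fell of 41 and 0 and 21 of 38 (medians -0.40 and -0.38). AURKB, the mitotic kinase, ranged from 13.3 over 22.6 to 30.4 CPM with DMSO and from 8.44 over 17.6 to 26.2 with the combination, and fell by 0.38 ± 0.07 (adjusted p = 0.00882) in 9 of 9 lines. BIRC5, survivin, fell by 0.40 ± 0.08, CDT1, a factor of origin licensing, by 0.43 ± 0.09, ESPL1, the protease separase, by 0.29 ± 0.07, and FEN1, the flap endonuclease, by 0.73 ± 0.19 from a low level (median 0.655 CPM with DMSO). The falls with the combination kept their direction under every scaling, with 8 to 17 replication and 10 to 21 mitosis genes. Those with tazemetostat came to 5 and 1 with TMM factors from promoter peaks and to 0 and 1 with offsets that follow abundance.

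Housekeeping promoters fell with tazemetostat in large numbers. Of genes for cytoplasmic ribosomal proteins 48 fell and 0 rose of 64 tested (median -0.41), of proteasome subunits 19 and 0 of 26 (-0.42), of glycolysis 10 and 0 of 14 (-0.43), and of sterol and fatty acid synthesis 16 and 0 of 26 (-0.37). RPL19 went from 5.71 to 6.93 CPM over the 4 lines with DMSO to 3.20 to 4.31, without overlap, a fall of 0.68 ± 0.13 (adjusted p = 0.0175). FASN, the fatty acid synthase, fell by 0.47 ± 0.10, and PGAM1, a glycolytic mutase, by 0.66 ± 0.14. With offsets that follow abundance 6, 1, 1 and 0 members of these lists fell. With the combination 7 ribosomal protein genes fell of 62, 3 proteasome genes fell and 1 rose of 26, 2 glycolysis genes fell of 14 and 0 sterol genes changed of 26.

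The drug targets and their pathways had falls that depended on the scaling. Of PRC2 subunits and the demethylases that oppose them, 0 rose and 1 fell of 11 with the combination and 0 and 8 with tazemetostat. KDM6B, a demethylase of lysine 27, ranged from 53.5 over 71.6 to 86.5 CPM with DMSO and from 36.9 over 61.2 to 74.2 with the combination, and fell by 0.22 ± 0.05 (adjusted p = 0.0233). Of the PI3K-AKT-mTOR genes 3 fell and 0 rose of 30 with the combination and 16 fell and 0 rose with tazemetostat. RPTOR, the mTORC1 scaffold, went from 10.8, 12.3, 8.79 and 8.45 CPM in MDA-MB-231, MDA-MB-468, SUM-149PT and SUM-159PT to 6.67, 7.49, 6.78 and 5.91 with tazemetostat, below every DMSO value. It fell by 0.56 ± 0.12 there and by 0.31 ± 0.08 with the combination (adjusted p = 0.0202 and 0.0366), and AKT1 fell by 0.54 ± 0.12 with tazemetostat (adjusted p = 0.0232). Of FOXO targets, PDK4, a brake on pyruvate use, rose (0.33 ± 0.09) and DDIT4, an inhibitor of mTORC1, fell (-0.17 ± 0.05) with the combination, 1 and 1 of 33, and 11 fell and 0 rose with tazemetostat. The FOXO count with tazemetostat is 11 of 33, near the 29.8% of all genes. With TMM factors from promoter peaks 1 PRC2, 5 PI3K and 1 FOXO gene fell with tazemetostat, and with offsets that follow abundance 0 fell in each and 0, 1 and 2 rose. EZH2, the target of tazemetostat, had -0.38 ± 0.10 with that agent (adjusted p = 0.0375) and -0.08 ± 0.06 with the combination (adjusted p = 0.399). With ipatasertib the medians of these 3 lists were between 0.09 and 0.11, with 0 members called.

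Markers of cell states changed at few genes. Among luminal markers 2 of 24 rose with the combination, PGR, the progesterone receptor, among them (0.62 ± 0.12), and PGR rose with tazemetostat (0.76 ± 0.16, adjusted p = 0.0203) while CEBPB, XBP1 and STAT3 fell (-0.49 ± 0.09, -0.43 ± 0.09 and -0.40 ± 0.09). PGR stood at 0.513 over 1.42 to 9.39 CPM with DMSO and at 0.557 over 2.83 to 12.5 with the combination, higher in 9 of 9 lines. Basal markers had 0 called of 20 with the combination and 5 fallen with tazemetostat, KRT5 among them (-0.58 ± 0.11), and mesenchymal markers had 0 called of 20 and of 21. Of the lists for cell types foreign to these cultures, 2 of 13 endothelial markers rose with the combination, FLT1 (0.70 ± 0.19) and ERG (0.63 ± 0.13), a receptor and an ETS factor of vessels, and 0 of 13 immune markers did. Interferon and antigen presentation genes had 0 and 2 fallen of 19 with the combination and with tazemetostat, AP-1 and ERK feedback genes 0 and 13 of 29, and BCL2 family genes 0 and 8 of 14, with 0 risen in each. These counts, and those of the basal list, turned with the scaling. With offsets that follow abundance 7 AP-1 and ERK feedback genes rose with the combination and 3 with tazemetostat, and 0 genes of the basal, luminal, interferon, AP-1 or BCL2 lists fell with either. With TMM factors from promoter peaks the falls with tazemetostat were 1 basal, 2 luminal, 0 interferon, 0 AP-1 and 2 BCL2 family genes. The falls with tazemetostat stand beside the 29.8% of all genes tested that fell.

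**Figure D5:**
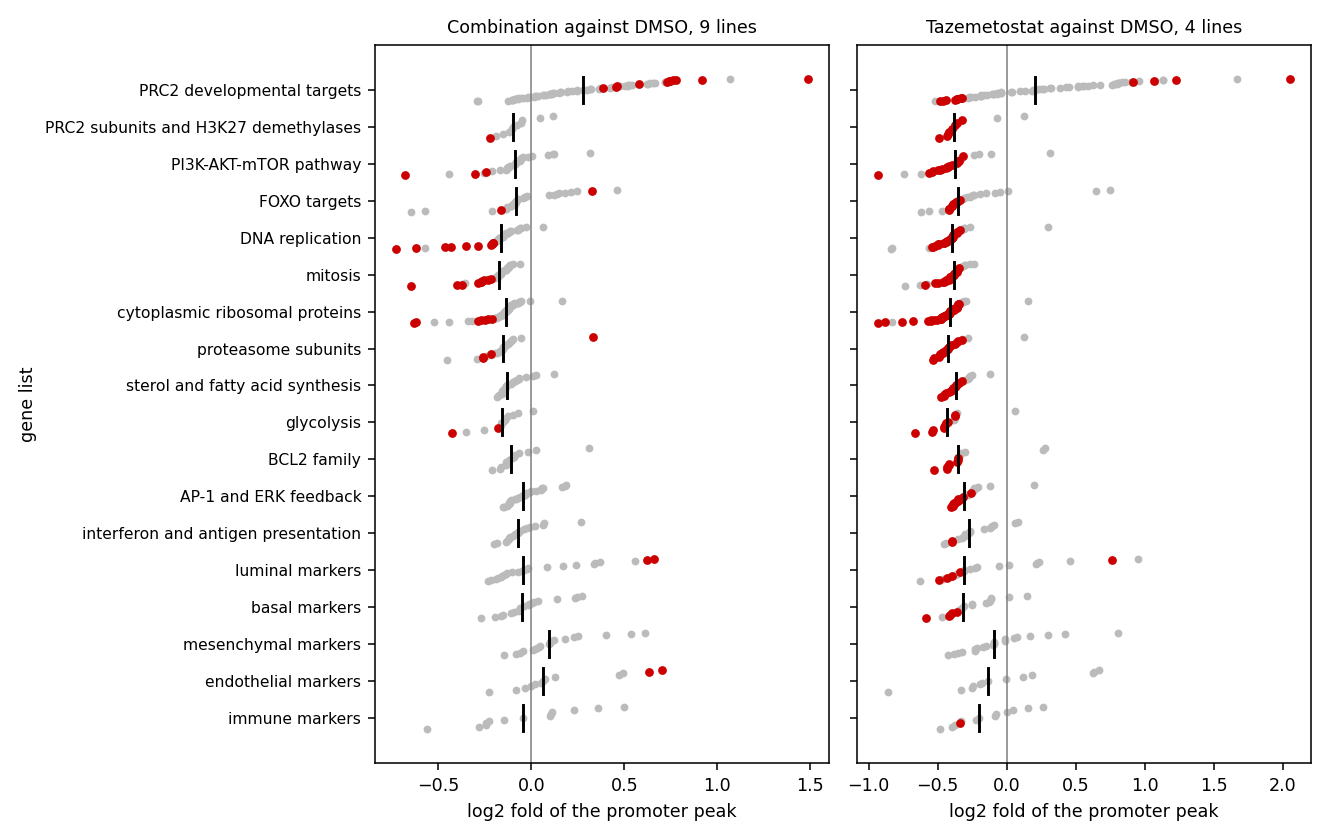
Log2 fold of the promoter peaks (x axis) of each gene list (y axis) with the combination over 9 lines and with tazemetostat over 4, each point a gene, red where it passed an adjusted p of 0.05, with a black bar at the median of the list. The PRC2 developmental targets have their median above 0 in both panels, at 0.28 and 0.20, while replication and ribosomal protein genes have theirs below 0.

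Within single lines the combination was set against DMSO by size alone, at least 1.5-fold with a mean of at least 4 CPM, since the 3 libraries of a group count as 1 sample and there is no test. The lines differed in which direction prevailed at promoters, and MDA-MB-231 was near even. In every line the promoter percentages were below those of all peaks in both directions. SUM-149PT had 4.17% of 14981 promoter peaks higher and 0.294% lower (6.28% and 0.744% of all peaks), and HCC1395 4.78% of 14214 and 0.4995% (5.63% and 2.99%). In HCC1143 it was 3.28% and 0.940% (6.99% and 3.11% of all peaks), in HCC1937 1.75% and 0.309% (3.96% and 1.19%) and in BT-549 1.22% and 0.498% (2.49% and 2.45%). BT-20 had 0.721% higher and 0.350% lower (1.86% and 1.78%), and MDA-MB-231 0.683% and 0.704% (1.26% and 1.21%). SUM-159PT had 4.42% and 5.89% (8.34% and 9.75%), and MDA-MB-468 1.83% and 12.4% (5.34% and 20.9%), the latter 1800 peaks. The losses in MDA-MB-468 numbered 402 with total counts and 249 with TMM factors from promoter peaks, and those in SUM-159PT went from 805 to 394 and 163, so in these lines the balance depends on the scaling.

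The largest change in each line was at a different gene. In MDA-MB-468 TNFRSF19, a receptor of the TNF family, went from 0.795 to 10.3 CPM, 12.2-fold higher, and H4C9, a histone H4 gene with near-identical copies, from 10.4 to 0.932 CPM, 10.7-fold lower. In SUM-159PT FXYD6-FXYD2 went from 0.988 to 10.02 CPM (9.70-fold). In BT-549 IFI16, a sensor of foreign DNA, was 3.94-fold higher, in HCC1143 KISS1, a metastasis suppressor peptide, 3.46-fold, and in HCC1395 SLITRK4, a neuronal adhesion protein, 3.68-fold. HSPB3 led in MDA-MB-231 (5.00-fold), HSD17B12 in SUM-149PT (3.19-fold), FSTL5 in HCC1937 (2.73-fold) and NR4A1AS in BT-20 (2.38-fold). The largest losses elsewhere were smaller, from 1.86-fold at SRD5A1, a steroid reductase, in SUM-149PT to 3.08-fold at CLDN12, a claudin, in HCC1395 and 3.21-fold at SIRLNT in HCC1143.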

How the data were processed

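ATAC-seq was measured in 78 libraries of 9 cell lines, and 6 further labelled samples, of HCC1806, were not analysed here. The authors deposited raw counts of reads per peak and, in a second table, the gene, annotation class and distance to the TSS of every peak. Peaks were called with MACS2 and counted with featureCounts on hg38, per the submitters' processing notes. The sources used here do not give versions, the aligner, duplicate removal, the Tn5 shift or the annotation tool. All 78 count columns were used and 0 left out. All libraries were counted over 1 shared set of peaks, so the same sites were compared.

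The 3 libraries of each line and treatment were summed, because most pairs differed by less than sampling noise, and fitted with edgeR 4.0.16 in R 4.3.3 (quasi-likelihood, TMM, filterByExpr with a minimum count of 10, line as block, SE from the fold and the F statistic, Benjamini-Hochberg over all peaks, threshold 0.05). P-values therefore measure the spread between lines. The scripts were tested on simulated counts. Tried beside this were the Wald test of DESeq2 1.42.0, its size factors, total counts, TMM on promoter peaks, loess offsets that follow abundance (span 0.3), other filters, a block for the replicate number, and fits with a replicate or line left out. Values in CPM use TMM on the sums; folds within a line add 0.05 CPM.

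Named genes have 1 promoter peak each, the one with the highest mean level, and a symbol that is not a LOC, LINC, MIR, antisense or open reading frame name. For the combination they are the 12 largest rises and falls whose mean log2 CPM reached 2 and whose direction was shared by at least 8 of 9 lines, for single agents the 5 largest with 4 of 4. Each list gives up to 4 called members with the largest folds. ZNF132 and RNF225, lower in the ranking of falls, were named because the falls above them had no usable sequence window. A few genes that the rule gives are not reported here. Members, lists and rules were chosen with earlier results of these data known. Promoter windows are RefSeq's on GRCh38.p14, and 72.2% of gene IDs matched. Coordinates of peaks are those deposited.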

Additional observations from a re-analysis of the deposited data

Results flagged for a closer look

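In 36 sets of line values for promoter peaks named here and for the promoter share, 1 held a line whose value lay far from the nearest of the others, where chance gives about 1 set in 20. HSD17B12 stood at a log2 fold of 1.95 in MDA-MB-231 with tazemetostat (median of 4 lines 1.48).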

How the results depend on the processing

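With the combination, the 1640 risen promoter peaks became 4572 with the replicate block, 924 without BT-549, 958 without HCC1395, 999 without HCC1937, 1025 without SUM-149PT and 890 within 1 kb. The 1907 fallen became 3329 at a minimum count of 30, 10654 with the replicate block, 2877 with total counts and 1144 within 1 kb. Without BT-549, HCC1143, HCC1937, MDA-MB-231, MDA-MB-468, SUM-149PT and SUM-159PT they were 740, 1069, 916, 924, 1030, 1264 and 911. With tazemetostat the 696 risen became 3368 with the replicate block, 1529 with TMM on promoter peaks, 1059 with total counts, 416 with trended offsets, 333 within 1 kb, and 188, 131 and 29 without MDA-MB-231, MDA-MB-468 and SUM-159PT. The 6905 fallen became 2266 with no filter, 14119 with the replicate block, 1360 with TMM on promoter peaks and 339 with trended offsets. Without MDA-MB-231, MDA-MB-468, SUM-149PT and SUM-159PT they were 41, 904, 2975 and 0, and 4511 to 9006 when leaving out a replicate. The replicate block gave ipatasertib 20 risen and 5 fallen and the combination against tazemetostat 415 and 25. The replicate numbers share only a number: deviations of same-numbered libraries correlated by -0.11 to 0.064 in 51 pairs, 0 of them over 0.1. The causes of these shifts were not tested, beyond the smaller number of lines or peaks.

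The median of promoter peaks turned from -0.07 to 0.0042 (combination, TMM on promoter peaks) and from -0.24 to 0.039 (tazemetostat, the same), and was -0.056 with trended offsets. For ipatasertib it turned to -0.019 with total counts, -0.0051 with TMM on promoter peaks and -0.012 with trended offsets, and for the combination against tazemetostat to -0.00051, -0.0080 and 0.0038. Promoters open in no line numbered 9997 at 0.5 CPM. The falls of BCL2L2, FOSL2, SRF and SPI1 with tazemetostat turned to 0.0014, 0.0066, 0.028 and 0.11 with trended offsets. Leaving out a replicate, the median difference in promoter share ranged from -1.26 to -0.557 points (combination), -3.16 to -2.68 (tazemetostat) and 0.036 to 0.417 (ipatasertib). The other values mix calls of single genes with counts. Of these values, 2925 stayed the same, 786 became weaker, 182 became stronger and 4 reversed. A count that became weaker or stronger is not a lost or gained call, so these totals do not give the number of calls that changed. Peaks with few counts limit what can be called, and 4 lines limit the single agents.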

Other observations

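Gene families were counted by symbol after their values had been seen, with 1 promoter peak a gene, so the counts are a description. Of 50 replication-dependent histone genes tested, 21 fell and 0 rose with the combination (median -0.25), beside 5.26% of all genes tested, and 48 had a log2 fold below 0. The falls numbered 21 to 24 under the 4 other scalings. With tazemetostat 31 of 51 fell and 0 rose, beside 29.8% of all genes that fell. The falls were 2 with TMM factors from promoter peaks and 1 with offsets that follow abundance. These genes have near-identical copies, so their values are uncertain. Of 59 genes for mitochondrial ribosomal proteins 11 fell and 0 rose with the combination (median -0.16, 11 to 19 under the other scalings), and of 31 NDUF genes, which encode subunits of respiratory complex I, 5 fell and 0 rose (median -0.13).

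Transcription factor families had rises among them with the combination. Of 31 HOX genes tested 4 rose and 0 fell with the combination (median 0.02), of 44 FOX genes 5 rose and 3 fell, and of 14 SOX genes 3 rose and 1 fell (median 0.22), beside 4.31% risen among all genes tested. With tazemetostat more of them fell than rose, as among all genes tested, where 29.8% fell and 1.53% rose. Of 32 HOX genes 0 rose and 4 (12.5%) fell, and of 45 FOX genes 1 rose and 10 (22.2%) fell. Of 14 SOX genes 1 rose and 4 (28.6%) fell, so no family fell more often than all genes. With offsets that follow abundance 0 fell in each family and 1 FOX gene rose. Of 448 ZNF genes 4 rose and 29 fell with the combination (median -0.15), where 76 fell with total counts, and with tazemetostat 0 rose and 219 of 458 fell (median -0.40), beside 29.8% of all genes tested. The ZNF falls with tazemetostat numbered 39 with TMM factors from promoter peaks and 12 with offsets that follow abundance. Of 32 keratin genes 0 were called with the combination (edgeR).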
